A study of Mus musculus with 6 samples.

Results

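Cells can carry signals that hold back the immune cells around them. Cd200, Cd276, Cd274, Cd24a and Stc1 are 5 mouse genes for such signals, chosen as a list by symbol, and 4 of the 5 had a row among the 29587 gene rows of the table; Stc1 is not analysed here. The table gives messenger RNA levels of osteoblasts killed with ultraviolet light, in 3 libraries from old mice and 3 from young mice, in a study of how such cells escape clearance by phagocytes during aging. In both groups the labels describe cultured bone fragments whose adherent cells were passaged as bone marrow mesenchymal stem cells, then 3 days in osteogenic medium and 0.5 h of ultraviolet light. The labels give the age of the mice only as old or young, with no strain, no sex and a genotype of none, and no library of living osteoblasts was compared here. Nothing in them says whether the libraries are from different animals or cultures, so every p-value below refers to the scatter among 6 libraries, and that scatter may be technical.

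Engulfment of a dying cell depends on a balance between signals that invite a phagocyte and signals that restrain it. Cd200 is a membrane glycoprotein of the immunoglobulin superfamily that binds the inhibitory receptor Cd200r1 on myeloid cells. Cd274 (PD-L1) and Cd276 (B7-H3) belong to the B7 family: Cd274 engages the receptor Pdcd1 on T cells and on some macrophages and is classically induced by interferon, and Cd276 restrains T cells and is also carried by osteoblasts. Cd24a is a short, heavily glycosylated protein held by a lipid anchor, and its human counterpart restrains macrophages through a Siglec receptor. Stc1 encodes a secreted and intracellular glycoprotein that can hold back calreticulin, a signal for engulfment, and is not a surface protein by the usual definition.

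The start regions of Cd200, Cd274 and Cd276 are shown because these 3 genes carried all but a few of the members' reads and differed in their levels. Each runs from 250 bases before to 50 bases after the RefSeq start of the gene, read 5′ to 3′ on the gene's strand, in RefSeq's sequence for build GRCm38.p6, the assembly behind mm10. The whole Cd276 window lies inside the gene as counted here (58524298 to 58555437), so its first 250 bases are not upstream of the measured gene. Capitals mark each CG pair.
Cd200 (chr16:45409004-45409303, minus strand): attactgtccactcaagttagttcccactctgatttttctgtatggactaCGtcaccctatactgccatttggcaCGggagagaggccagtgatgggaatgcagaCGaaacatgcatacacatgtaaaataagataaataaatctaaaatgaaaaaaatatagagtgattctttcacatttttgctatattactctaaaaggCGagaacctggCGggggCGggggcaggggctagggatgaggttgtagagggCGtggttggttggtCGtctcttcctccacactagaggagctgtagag
Cd274 (chr19:29367188-29367487, plus strand): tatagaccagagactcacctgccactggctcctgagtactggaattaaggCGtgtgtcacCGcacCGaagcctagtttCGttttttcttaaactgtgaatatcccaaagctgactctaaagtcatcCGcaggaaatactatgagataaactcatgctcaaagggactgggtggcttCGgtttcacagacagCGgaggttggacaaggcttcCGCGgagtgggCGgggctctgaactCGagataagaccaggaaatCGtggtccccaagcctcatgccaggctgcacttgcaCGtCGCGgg
Cd276 (chr9:58554984-58555283, minus strand): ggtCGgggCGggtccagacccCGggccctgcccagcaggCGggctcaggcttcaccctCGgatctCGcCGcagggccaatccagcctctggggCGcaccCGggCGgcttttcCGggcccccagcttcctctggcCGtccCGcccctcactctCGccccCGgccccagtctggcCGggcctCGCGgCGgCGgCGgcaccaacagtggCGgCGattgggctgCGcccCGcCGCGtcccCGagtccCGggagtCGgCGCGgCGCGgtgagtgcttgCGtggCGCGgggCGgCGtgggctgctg

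The Cd276 window held 39 CG pairs at 78.3% G and C, the Cd274 window 15 pairs at 52.7%, and the Cd200 window 8 pairs at 45%. The median over 32851 RefSeq windows of the same length was 7 pairs and 52.7%. Both strands of the windows were searched for 5 motifs. The interferon-stimulated response element, as GAAA, 2 bases of any kind and GAAA, stood in 3.44% of all windows, the interferon gamma activated site, as TTCNNNGAA, in 8.3%, and an NF-kappaB site, as GGG, 2 bases of any kind and TTTCC, in 1.63%. A RUNX site, as TGTGGT, stood in 16.8% and the hypoxia response core, as ACGTG, in 19.6%. The single match among these genes was the hypoxia core in Cd274, on the opposite strand, beginning 40 bases after the start. The other 4 motifs had no match in the 3 windows, which says only that these letters are not there.

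Depth ranged from 75456146 to 84535939 reads in the old libraries and from 64881180 to 82917726 in the young, recovered as whole reads from the deposited RPKM (reads adjusted for a gene's length and a library's total). Young replicate 1 stood apart: its log2 levels correlated with young replicates 2 and 3 at 0.949 and 0.962, against 0.996 between those 2 and 0.995 to 0.997 among the old libraries (Pearson's r across 12015 genes, which are not independent replicates). Results are therefore given with and without it. Osteoblast markers were unevenly present. Col1a1, the main bone collagen gene, was abundant, at 1528 ± 31.9 RPKM in old and 1550 ± 424 RPKM in young (SD, n = 3 each). Alpl and Bglap, markers of mineralising osteoblasts, were low, with Alpl at 0.487 ± 0.0684 and 0.614 ± 0.126 RPKM and Bglap at 0.742 ± 0.138 and 0.416 ± 0.0372 RPKM in old and young (SD, n = 3 each).

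Of the 4 members measured, Cd200 had the highest level per length in every library, and it was lower in cells from old mice. The order was Cd200, Cd276, Cd274 and Cd24a in all 6 libraries, and the RPKM ranges of no 2 neighbours in that order overlapped within a group. Cd200 lay at the 78.1 to 79.2 percentile of all gene rows in the old libraries and at the 84 to 85.8 percentile in the young. Cd276 lay at the 73.4 to 74.1 percentile in old and 71.5 to 73.6 in young, and Cd274 at 53.7 to 55.5 in old and 49.3 to 55.3 in young.

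**Figure D1:**
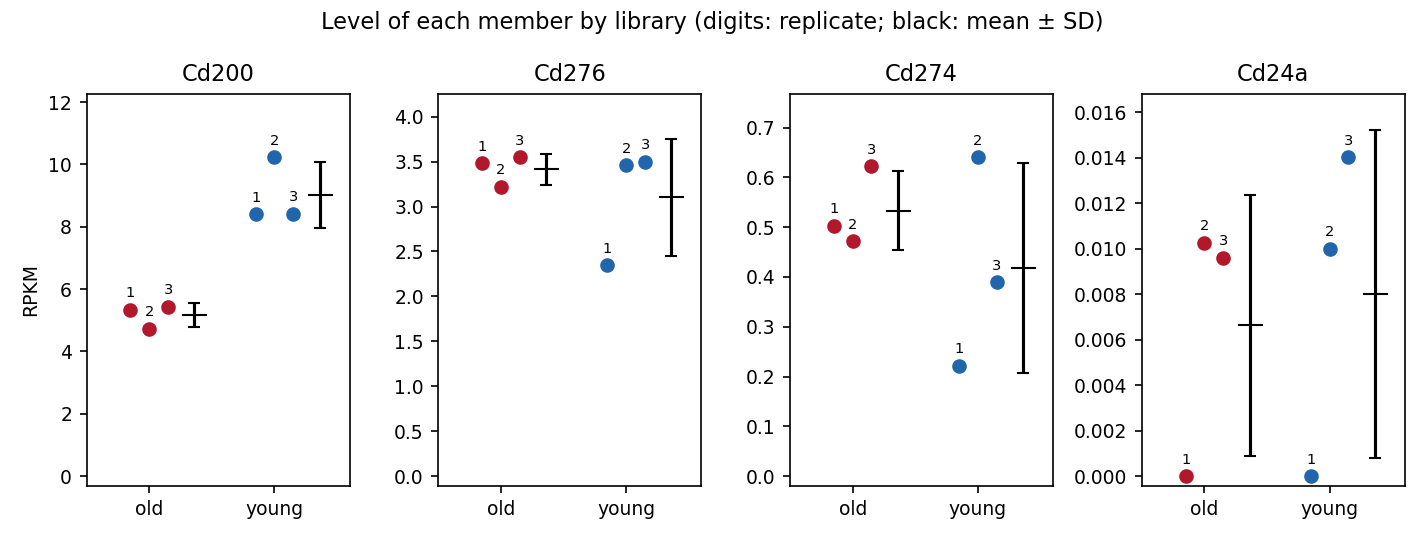
Level in RPKM (vertical axis, a separate scale for each gene) of the 4 members in each of 3 old (red) and 3 young (blue) libraries, with digits for the replicate and the mean ± SD in black. The old libraries of Cd200, at 4.72 to 5.44 RPKM, all lie below the young ones, at 8.40 to 10.2 RPKM, while the groups overlap for Cd276, Cd274 and Cd24a.

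Cd200 (ENSMUSG00000022661, chromosome 16, 45382135 to 45409053, minus strand, mm10) stood at 5.34, 4.72 and 5.44 RPKM in old replicates 1, 2 and 3, against 8.40, 10.2 and 8.42 RPKM in young replicates 1, 2 and 3. Every old library was below every young library, which was so for 10.2% of the 12015 genes tested. The values rest on 1184 to 1498 reads per old library and 1809 to 2638 per young library over 3321 exonic bases. Its mean was 5.17 ± 0.385 RPKM in old and 9.02 ± 1.05 RPKM in young (SD, n = 3 each), a ratio of 0.573. The log2 fold change of RPKM + 1 was -0.70 ± 0.11 (SE, limma adjusted p = 0.0437), with a 95% interval of -0.97 to -0.43. With limma, 0.0999% of the 12015 tested genes were called lower in old and 1.47% were called higher, at an adjusted p under 0.05. Of the 12 genes called lower, 8 had a smaller p than Cd200, and 23 tested genes had a more negative fold change. In bulk libraries such as these, fewer cells that make a transcript and less of it per cell cannot be told apart.

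The fall of Cd200 kept its direction in all 20 alternative settings, with log2 values of -0.80 to -0.61, but its call was close to the threshold. Part of this was fixed in advance. Every old library was below every young one, so leaving out a library could not reverse the direction. The other filters, no variance trend, robust variance and the replicate block do not alter the log2 value of -0.70. Without young replicate 1 the log2 fold change was -0.74 (limma adjusted p = 0.00357), in a comparison that called 13.2% of genes higher and 19.4% lower. The call was lost without old replicate 1, 2 or 3 (limma adjusted p = 0.253, 0.252 and 0.212) and without young replicate 2 or 3 (limma adjusted p = 0.102 and 0.163). It was also lost when all 29587 genes entered with no filter (limma adjusted p = 0.0738). None of the 3523 different 50-base stretches of its transcripts occurs in the transcript of another annotated gene, and no annotated gene overlaps it.

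**Figure D2:**
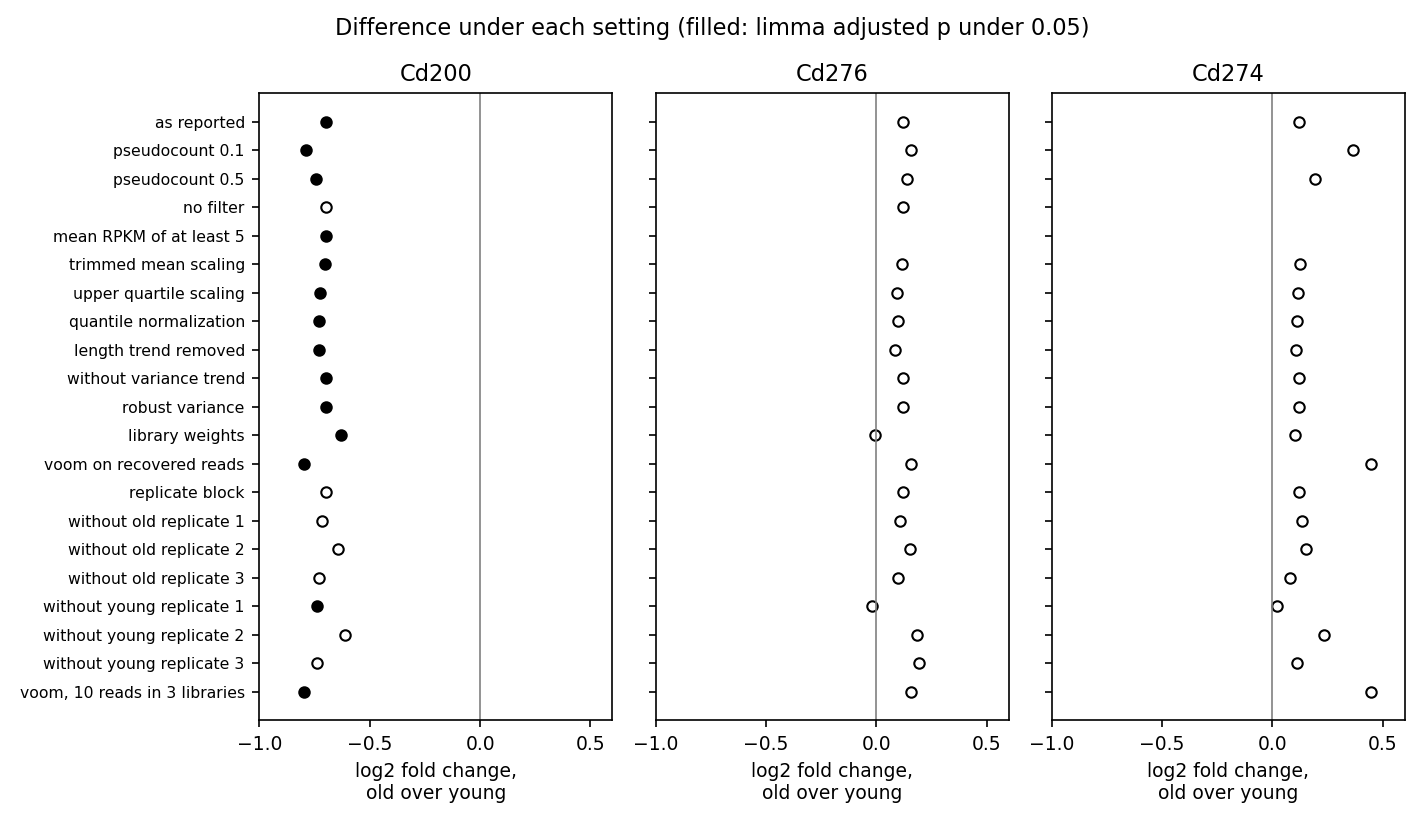
Log2 fold change, old over young (horizontal axis), of Cd200, Cd276 and Cd274 in the fit as reported and under each alternative (vertical axis), with filled points at a limma adjusted p under 0.05; Cd274 is taken from fits over all genes. Cd200 stays between -0.80 and -0.61, Cd276 between -0.02 and 0.19 and Cd274 between 0.02 and 0.45, and only Cd200 has filled points.

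Cd276 (ENSMUSG00000035914, chromosome 9, 58524298 to 58555437, minus strand, mm10) did not pass the test. It stood at 3.48, 3.22 and 3.55 RPKM in old replicates 1, 2 and 3, against 2.35, 3.46 and 3.50 RPKM in young replicates 1, 2 and 3. The groups overlapped, and the low value was that of young replicate 1, the library that stood apart. The log2 fold change was 0.12 ± 0.14 (SE, limma adjusted p = 0.921), and its 95% interval of -0.21 to 0.45 covers ratios of RPKM + 1 from 0.863 to 1.37. With young replicate 1 left out the value turned to -0.02 (limma adjusted p = 0.814). A predicted gene on the opposite strand, Gm10657, shares 9.92% of the 50-base stretches of Cd276 transcripts and was given 25 to 26 reads per old library and 8 to 38 per young library. Cd276 had 889 to 1076 reads per old library and 557 to 1061 per young library, and whether the authors counted by strand is not given in the sources used here.

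Cd274 (ENSMUSG00000016496, chromosome 19, 29367455 to 29388095, plus strand, mm10) stayed below 1 RPKM in every library and so did not pass the filter. It stood at 0.503, 0.472 and 0.622 RPKM in old replicates 1, 2 and 3, against 0.221, 0.640 and 0.390 RPKM in young replicates 1, 2 and 3. The old libraries lay inside the range of the young ones, whose highest and lowest values differed more than the group means did. Reads were not scarce, with 129 to 182 per old library and 52 to 180 per young library. In the fit over all 29587 genes the log2 fold change of RPKM + 1 was 0.12 ± 0.12 (SE, limma adjusted p = 0.840), with a 95% interval of -0.17 to 0.41. On the recovered reads, where no constant is added to RPKM, limma's voom gave 0.45 ± 0.36 (SE, adjusted p = 0.796), a 95% interval that covers folds from 0.755 to 2.46. An exact two-sided permutation test gave p = 0.5, where 3 against 3 libraries cannot go below 0.1. The fit over all genes called 0.629% of them higher and 0.0372% lower in old, and voom called 1.23% and 0.0402% of 17430. Against young replicates 2 and 3 alone the old mean was 1.03 times the young mean. Of the 50-base stretches of Cd274 transcripts, 12.4% also occur in transcripts of 214 other annotated genes, most of them in an antisense RNA within Cd274, so its value is uncertain.

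Cd24a (ENSMUSG00000047139, chromosome 10, 43578284 to 43584265, plus strand, mm10) was not detected above the counting floor in any library. It had 0, 2 and 2 reads in old replicates 1, 2 and 3, against 0, 2 and 3 reads in young replicates 1, 2 and 3. No library exceeded 3 reads, which over 2580 exonic bases correspond to 0.0138 to 0.0154 RPKM in old and 0.0140 to 0.0179 RPKM in young, a limit for counting error only. No fold change is given, and a difference between the groups was not detectable at this depth. Another annotated gene, Gm6212, shares 2.75% of the 50-base stretches of Cd24a transcripts.

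The ratio of Cd200 to Cd276 was lower in every old library than in any young one. Cd200 was 1.53, 1.47 and 1.53 times the RPKM of Cd276 in old replicates 1, 2 and 3, against 3.58, 2.96 and 2.41 times in young replicates 1, 2 and 3. The ratio, which is free of the scaling between libraries, averaged 1.51 ± 0.0381 in old and 2.98 ± 0.585 in young (SD, n = 3 each). The groups did not overlap, and an exact two-sided permutation test of the log2 ratios gave p = 0.1, the smallest that 3 against 3 libraries allow. Young replicate 1, at 3.58, was the highest. The ratio of Cd200 to Cd274 was 8.74 to 10.6 in old and 16.0 to 37.9 in young, also with no overlap (exact permutation p = 0.1). That of Cd276 to Cd274 was 5.70 to 6.92 in old and 5.40 to 10.6 in young, with overlap (exact permutation p = 0.4). Both ratios that separated hold Cd200, whose own levels already separated the groups, as did those of 10.2% of tested genes in that direction. They are therefore not further evidence beside the fall of Cd200.

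Among the receptors of these signals, Siglecg was low, the listed relatives of the Cd200 receptor were near 0, and others could not be examined. Of 13 listed receptors, binding partners and the paralog of Stc1, 9 had a row and 4 were tested; Cd200r1, Pdcd1, Selp and Treml2 are not analysed here. Cd200r2, Cd200r3 and Cd200r4, relatives of the Cd200 receptor, and Stc2 stayed under 0.1 RPKM in every library. Siglecg, the mouse counterpart of the human receptor for CD24, was at 0.323 ± 0.0279 RPKM in old and 0.311 ± 0.0949 RPKM in young (SD, n = 3 each). Limma called 0 of the 4 tested genes (Cd80, Calr, Hmgb1 and Lrp1), as did voom on the recovered reads, with 1 at an unadjusted p under 0.05, which 11.2% of all tested genes reached. The median log2 fold change was 0.13, beside 0.01 over all tested genes.

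Cd80, a B7 protein that binds Cd274 on the same cell, was that gene. It stood at 3.62, 4.15 and 4.03 RPKM in old replicates 1, 2 and 3, against 3.08, 2.90 and 2.66 RPKM in young replicates 1, 2 and 3. Every old library was above every young library, which was so for 10.6% of the genes tested, and the log2 fold change was 0.35 ± 0.09 (SE), with a limma adjusted p of 0.199. With the young group reduced to replicates 2 and 3 it was 0.38 (limma adjusted p = 0.0119), in a comparison that called 13.2% of genes higher and 19.4% lower. Calr, the gene for calreticulin, was abundant and overlapped between groups, at 1571 ± 112 RPKM in old and 1635 ± 437 RPKM in young (SD, n = 3 each). Hmgb1, a nuclear protein released by dying cells that Cd24a can bind, was at 526 ± 40.6 and 654 ± 228 RPKM, and Lrp1, a receptor for calreticulin, at 20.9 ± 2.69 and 18.1 ± 7.33 RPKM in old and young.

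Of other ligands that restrain immune cells, most were low or near 0, and Lgals9 was the highest per length in every library. Of 22 listed, 18 had a row, 8 of these stayed under 0.1 RPKM in every library and 5 were tested. Limma called 0 of the 5, as did voom on the recovered reads. An unadjusted p under 0.05 was met by 2 of the 5, and by 11.2% of all tested genes. The median log2 fold change was 0.09, beside 0.01 over all tested genes. Lgals9, a galectin that binds checkpoint receptors on T cells, stood at 16.1, 16.9 and 17.2 RPKM in old replicates 1, 2 and 3, against 6.74, 10.2 and 9.35 RPKM in young replicates 1, 2 and 3. Every old library was above every young library, which was so for 10.6% of the genes tested. The log2 fold change of Lgals9, 0.88 ± 0.15 (SE), missed the threshold (limma adjusted p = 0.0582). Against young replicates 2 and 3 it was 0.72 (limma adjusted p = 0.000596), in a comparison that called 13.2% of genes higher and 19.4% lower. With trimmed mean, upper quartile or quantile scaling limma called Lgals9. Clec2d, a lectin-like ligand of an inhibitory receptor on natural killer cells, was at 3.41, 2.54 and 3.37 RPKM in old replicates, against 2.75, 0.924 and 1.03 RPKM in young replicates 1, 2 and 3. Its groups overlapped through young replicate 1, and its log2 fold change was 0.74 ± 0.27 (SE), with a limma adjusted p of 0.371. Without that library it was 1.05 (limma adjusted p = 0.00163), with the same shares of all genes called. Nectin3, an adhesion protein of the nectin family, was at 1.25 ± 0.0501 RPKM in old and 1.53 ± 0.119 RPKM in young (SD, n = 3 each, limma adjusted p = 0.494).

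All of the 17 listed signalling and stability factors known to set the level of Cd274 were tested. Of these, 2 rose and 0 fell, where 1.47% of all tested genes were called higher and 0.0999% lower. The list's median was 0.16 on the log2 scale, beside 0.01 over all tested genes. An unadjusted p under 0.05 was met by 4 of the 17, and by 11.2% of all tested genes. The 2 that rose were Stat2 and Irf9, subunits of the complex that carries the type I interferon signal to the nucleus. Stat2 stood at 26.8, 26.6 and 26.2 RPKM in old replicates 1, 2 and 3, against 5.40, 6.28 and 5.05 RPKM in young replicates 1, 2 and 3. Its log2 fold change was 2.07 ± 0.10 (SE), with a limma adjusted p of 0.000214. Irf9 stood at 8.05, 7.83 and 8.43 RPKM in old replicates 1, 2 and 3, against 0.927, 1.76 and 1.27 RPKM in young replicates 1, 2 and 3. Its log2 fold change was 1.99 ± 0.14 (SE), with a limma adjusted p of 0.00143. In both genes every old library was above every young library, while Cd274 had overlapping groups; the difference between these genes and Cd274 was not tested. The receptor chain Ifnar1 and the kinases Jak1, Jak2 and Tyk2, which act earlier in the interferon pathway, had log2 fold changes of 0.08, 0.15, 0.02 and 0.02 and were not called. The other listed receptor chains, Ifnar2, Ifngr1 and Ifngr2, had log2 fold changes of 0.08, 0.25 and 0.38 and were not called either. Myc, another listed factor, had a log2 fold change of 0.16 and was not called. In Ifngr2, Irf1 and Myc, as in Stat2 and Irf9, every old library was above every young library. That was so for 10.6% of the genes tested. The receptor chains, the kinases and Myc were named after their values were seen. Irf1, a transcription factor that acts on the Cd274 promoter, was at 9.53 ± 0.254 RPKM in old and 6.43 ± 0.708 RPKM in young (SD, n = 3 each), and its log2 fold change of 0.51 was not called (limma adjusted p = 0.0881). When young replicate 1 was left out, Irf1, Ifngr2 and Ifnar2 were also called higher and Cmtm4, whose product stabilises the Cd274 protein, lower, in a comparison that called 13.2% of all tested genes higher and 19.4% lower; the last 3 were named after their values were seen.

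**Figure D3:**
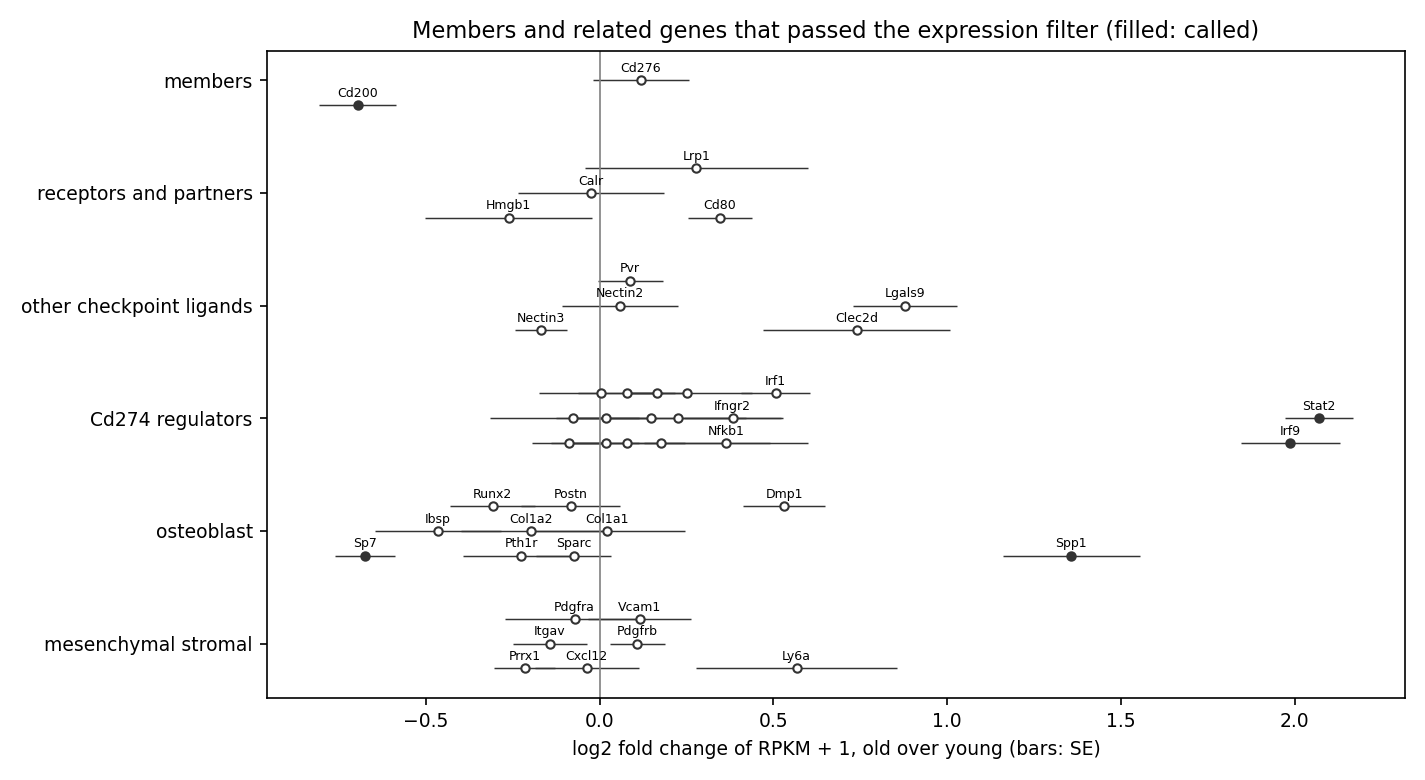
Log2 fold change of RPKM + 1, old over young (horizontal axis, bars are SE), of the 2 members and the listed genes that passed the filter, by list (rows), with filled points for genes called by limma. Cd200 at -0.70 lies near Sp7 at -0.68, and Stat2 and Irf9 lie at 2.07 and 1.99, far from Cd276 at 0.12; factors within 0.3 of 0 in the row of Cd274 regulators carry no name.

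Of 12 listed osteoblast markers, 10 were tested, and 1 rose and 1 fell, where 1.47% of all tested genes were called higher and 0.0999% lower. The list's median was -0.14 on the log2 scale, beside 0.01 over all tested genes, with 3 values positive and 7 negative. An unadjusted p under 0.05 was met by 5 of the 10, and by 11.2% of all tested genes. The gene that fell was Sp7, a transcription factor needed for osteoblast differentiation, at 4.89, 4.88 and 4.94 RPKM in old replicates, against 8.40, 7.89 and 9.02 RPKM in young replicates (log2 fold change -0.68 ± 0.09, SE, limma adjusted p = 0.0186). The gene that rose was Spp1, the matrix protein osteopontin, at 732 ± 68.6 and 290 ± 75.9 RPKM in old and young (SD, n = 3 each, limma adjusted p = 0.0307). Dmp1, a protein of maturing bone cells, was at 2.38 ± 0.0692 and 1.35 ± 0.328 RPKM in old and young (limma adjusted p = 0.121). Ibsp and Runx2, named after their values were seen, had log2 fold changes of -0.47 and -0.31 (limma adjusted p = 0.406 and 0.423). In Runx2 every old library was below every young library, which was so for 10.2% of the genes tested. Leaving out young replicate 1 made 2 of the 10 higher and 7 lower, where 13.2% and 19.4% of all tested genes were called. Spp1 lost its call with no filter, with trimmed mean or upper quartile scaling, with the replicate block and when any 1 of the other 5 libraries was left out. Sp7 lost its call with the replicate block and without young replicate 3 or any 1 old library. The part of osteoblast differentiation in the fall of Cd200 was not tested.

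Of 10 mesenchymal stromal markers 7 were tested and limma called 0, as did voom on the recovered reads. The median log2 fold change was -0.04. An unadjusted p under 0.05, which 11.2% of all tested genes reached, was met by 1 of the 7. That gene was Prrx1, a transcription factor of limb mesenchyme, at 28.3 ± 1.90 RPKM in old and 33.0 ± 0.856 RPKM in young. Ly6a, a surface marker of stromal progenitors, was at 5.59 ± 0.0257 and 3.73 ± 2.15 RPKM, and Pdgfrb, a growth factor receptor of stromal cells, at 15.9 ± 0.498 and 14.7 ± 0.317 RPKM in old and young (SD, n = 3 each). With young replicate 1 left out, 1 of the 7 was higher and 2 were lower, beside 13.2% and 19.4% of all tested genes.

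Markers of other cells that carry these signals were mostly low. Endothelial cells also make Cd200, and 7 listed endothelial markers summed to 0.209 to 0.223 RPKM in the old libraries and 0.197 to 0.285 RPKM in the young, and none reached 1 RPKM in 3 libraries. Cells of the B lymphoid and erythroid lines make Cd24a, and 7 of their markers summed to 0.169 to 0.203 RPKM in old and 0.125 to 0.174 RPKM in young. Of 9 macrophage and other blood cell markers, summing to 8.54 to 10.0 RPKM in old and 7.95 to 9.22 RPKM in young, only Lyz2 was tested, at 8.14 ± 0.512 and 7.30 ± 0.762 RPKM (SD, n = 3 each, limma adjusted p = 0.797). Ptprc, which all white blood cells carry, was at 0.000451 and 0.000938 RPKM on average in old and young. The part of such cells in these results was not tested.

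Cd200 and Cd276 were matched with other genes by Pearson's r of log2(RPKM + 1) over the 6 libraries, as a description of 6 points that share the group difference and the departure of young replicate 1. Among the 3 genes most like Cd200 were Sgol1, a guardian of sister chromatid cohesion (r = 0.995), and Sgcb, a sarcoglycan (r = 0.995), and 124 of 12014 genes reached 0.95. Sgol1 stood at 9.45, 8.72 and 9.56 RPKM in old replicates, against 12.2, 13.5 and 12.7 RPKM in young replicates (log2 fold change -0.43 ± 0.09, SE, limma adjusted p = 0.0952). Sgcb stood at 13.4, 12.6 and 13.8 RPKM in old replicates, against 16.1, 18.0 and 16.6 RPKM in young replicates, and was not called either (limma adjusted p = 0.199). The genes most like Cd276 were Fam222b, Sfxn3 and Aim1 (r = 0.998, 0.997 and 0.997), each lowest in young replicate 1, and 1211 genes reached 0.95.

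**Figure D4:**
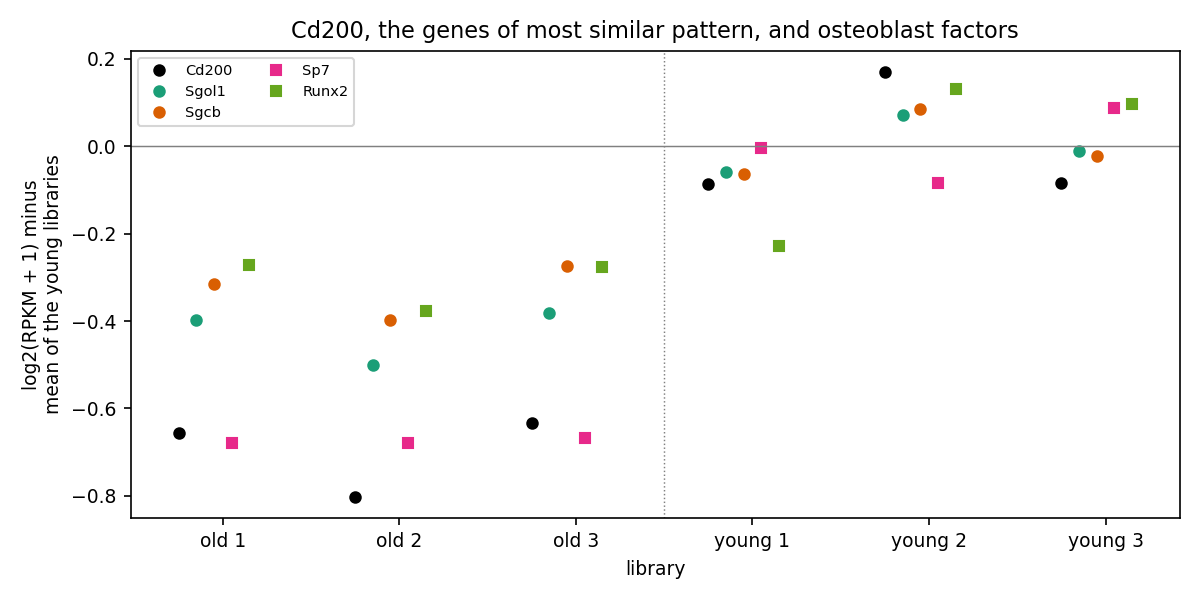
Log2(RPKM + 1) minus the mean of the young libraries (vertical axis) in each library (horizontal axis) for Cd200, 2 of the genes of most similar pattern (circles) and the osteoblast factors Sp7 and Runx2 (squares). In all 5 genes the old libraries lie below that mean, Cd200 and Sp7 lie lowest in old, and Runx2 in young replicate 1, at 4.18 RPKM, lies near its old values of 3.67 to 4.04 RPKM.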

How the data were processed

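Messenger RNA was sequenced from 3 libraries of old and 3 of young mice, and depth is given with the results. The authors deposited RPKM for each gene and library, with exon positions and gene lengths. The submitters' processing notes name fastp, STAR, HTSeq, edgeR and mm10; the sources used here give no version, setting, annotation or use of strand. RPKM times length gave whole reads within 0.01 for every value. Of genes with 1 to 5 reads, 77.5 to 79.3% had an even number, so these reads are not independent molecules.

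On log2(RPKM + 1), limma 3.58.1 (R 4.3.3) compared old with young libraries, with a variance trend, over genes at 1 RPKM or more in at least 3 libraries (12015 genes). The constant added to RPKM understates changes of low genes, and a gene high in 1 group could pass through that group alone. Tests were two-sided, with Benjamini-Hochberg adjustment over all genes tested. The fit was also run on simulated data in which no library stood apart, so that run does not cover the departure of young replicate 1. Members below the filter were taken from a fit over all genes. From each list the 3 tested genes of smallest p were named, with receptors and defining markers, and for each tested member the 3 genes of most similar pattern, predicted genes left out; 1 listed gene and 1 gene of similar pattern are not reported here. The members, lists and tests were chosen with earlier results of these data known. Alternatives were other pseudocounts, filters, scalings and variance models, voom on recovered reads, a replicate block and leaving out each library. Transcript stretches and Ensembl identifiers are from GENCODE M21, whose positions matched the table's for the members.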

Additional observations from a re-analysis of the deposited data

How the results depend on the processing

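The directions of Cd200 and Cd274 held in all alternatives run, and Cd274 was never called. For both genes, several of these alternatives could not change the direction, and for Cd274 the value fell to 0.02 without young replicate 1. Cd276 was never called and turned to -0.0076 on the log2 scale with library weights and to -0.021 without young replicate 1. Cd200 lost its call with no filter (-0.70, limma adjusted p = 0.0738) and with the replicate block (-0.70, limma adjusted p = 0.283). Leaving out each library gave Cd200 -0.74 to -0.61, Cd276 -0.02 to 0.19 and Cd274 0.02 to 0.23. The cause of these changes was not tested. At a mean of at least 5 RPKM neither Cd276 nor Cd274 entered. No alternative was run for Cd24a, at or under the floor, or for Stc1.

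Against 177 genes higher and 12 lower in old, 99 were higher at a mean of at least 5 RPKM, where 6394 genes were tested. Correcting the libraries for a trend with gene length gave 219 higher and 44 lower (83.3% of calls higher, against 93.7%). Library weights, with young replicate 1 weighted at 0.0425, gave 2119 higher and 2957 lower. Voom on genes with at least 10 reads in at least 3 libraries, chosen after seeing the data, gave 215 higher and 7 lower. Leaving out each library gave 80 to 1589 higher and 0 to 2329 lower, the highest without young replicate 1.

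The labels give replicate numbers but not whether equal numbers pair an old with a young library. Deviations from the group mean of same-numbered libraries correlated at -0.026, -0.436 and 0.329 for replicates 1, 2 and 3. Not every library correlated best with its own number. With 3 libraries in each group, these correlations cannot decide whether the numbers mark a pairing. The replicate block gave 82 higher and 0 lower, with Cd276 at 0.12 and Cd274 at 0.12.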

Other observations

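No tested gene near Cd200, Cd274 or Cd276 was called by limma. Within 500 kb of Cd200, 6 tested genes had log2 fold changes of -0.25 to -0.03, and limma and voom called 0 of them, with 1 at an unadjusted p under 0.05, beside 11.2% of all tested genes. Ccdc80, a secreted protein of stromal cells, was the most negative of them, at 78.0 ± 2.06 RPKM in old and 93.2 ± 11.5 RPKM in young (SD, n = 3 each, limma adjusted p = 0.529). Within 500 kb of Cd274, 14 tested genes had log2 fold changes of -0.25 to 0.25. Limma and voom called 0 of them, with 4 at an unadjusted p under 0.05, beside 11.2% of all tested genes. Plgrkt, a plasminogen receptor gene whose highest coordinate lies 65 bases before the lowest of Cd274, was at 8.96 ± 0.269 RPKM in old and 10.3 ± 2.01 RPKM in young (limma adjusted p = 0.838). Jak2, a kinase of the interferon receptors, had a log2 fold change of 0.02 (limma adjusted p = 0.989). Within 500 kb of Cd276, 8 tested genes had log2 fold changes of -0.21 to 0.53 and 0 were called by limma or voom, with 1 at an unadjusted p under 0.05. That gene was Pml, an organiser of nuclear bodies, at 3.17 ± 0.312 RPKM in old and 1.95 ± 0.760 RPKM in young (limma adjusted p = 0.406).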
